A study of Caenorhabditis elegans with 9 samples.

Results

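Messenger RNAs recovered with intestinal HZL-1::GFP from daf-2 dauer larvae were set against those recovered with GFP alone in Caenorhabditis elegans. The genes described are protein-coding, average at least 1 FPKM (fragment counts per unit of transcript length, scaled to the size of the library) over the 3 HZL-1 libraries and the 1 GFP library, and are above 0 in at least 1 of the 3 HZL-1 libraries. Of 46904 genes in the table, 7832 met this rule (16.7%), out of 9169 genes of any category that passed the same mean level and were tested. A further 215 coding genes passed the mean level but stood at 0 in each of the 3 HZL-1 libraries, with GFP values from 4.00 to 214 FPKM and a median of 5.85. The genes nearest the limit were F57B7.2 and C03H5.5 just inside, at a mean of 1 FPKM, and cyp-29A3 and set-21 just outside, at 0.998.

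The series holds 9 libraries of transcripts pulled down with anti-GFP antibodies, of which 4 enter this comparison and 3 more share its estimate of spread. The 3 HZL-1 libraries carried daf-2, hzl-1 (the allele is not given) and the extrachromosomal array Ex(nhx-2p::hzl-1::GFP), in which the nhx-2 promoter drives expression in the intestine. The GFP library is labelled daf-2, aak(0) and Ex(nhx-2p::GFP), with no hzl-1 allele listed. The 3 further libraries carried daf-2, aak(0), hzl-1 and Ex(nhx-2p::hzl-1::GFP). All were whole hermaphrodites grown at 25 °C and taken at 96 hours, on day 2 of dauer. By its label the GFP line therefore differed from the HZL-1 line in 3 ways, the protein fused to GFP, the aak genotype and the hzl-1 genotype, and these cannot be told apart here. An extrachromosomal array is inherited unevenly and can differ in copy number between lines. Nothing in the labels says whether the replicates came from separate cultures, so the spread between them may be technical.

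Dauer is a long-lived, non-feeding larval stage entered under harsh conditions or when insulin signalling through the DAF-2 receptor is low. AMP-activated protein kinase, whose catalytic subunits are encoded by aak-1 and aak-2, restrains energy use and germline proliferation in this stage. A pulldown of a tagged protein recovers the RNAs bound to it together with RNAs that stick to beads, antibody or GFP, and the GFP library measures the second class. Animals were fixed with formaldehyde before lysis and the RNA was not trimmed to bound fragments, so values are levels of whole transcripts and place no binding site. No input RNA was analysed here. In whole animals, fewer cells of a type and less RNA per cell cannot be told apart, and neither can be separated from how well a transcript was pulled down.

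The genes named in the construct and genotype were examined first. For hzl-1 (V:12835708-12839783), the HZL-1 libraries 1 to 3 held 2.01, 11.4 and 10.4 FPKM and the GFP library 3.04. Replicates 2 and 3 lay above GFP and replicate 1 below it, so the groups overlapped and the log2 difference, 0.90 ± 1.11 (SE), did not pass limma's test (adjusted p = 0.732). The overlap rests on the FPKM of replicate 1. In the deposited read table the 3 HZL-1 libraries held 617, 1043 and 1064 reads of hzl-1, relatively closer together than their FPKM. All log2 differences below are the mean of log2(FPKM + 1) over the 3 HZL-1 libraries minus the value of the GFP library. The insulin receptor gene daf-2 (III:2995487-3040860), which was tested but lies outside the 7832 because its category also names a non-coding RNA, stood at 11.1, 10.8 and 7.27 FPKM with HZL-1 and 22.6 with GFP, a difference of -1.16 ± 0.62 (SE, limma adjusted p = 0.56). Both AMPK catalytic genes gave values with GFP inside or near the HZL-1 range. For aak-1 they were 0, 2.85 and 6.41 FPKM with HZL-1 and 4.43 with GFP, while the 3 aak(0) HZL-1 libraries held 0, 2.19 and 2.66. For aak-2 they were 6.13, 5.31 and 7.90 FPKM with HZL-1 and 8.32 with GFP, and the aak(0) HZL-1 libraries held 0, 2.11 and 3.36. The library labelled aak(0) with GFP thus had the highest aak-2 level and more of both genes than any aak(0) HZL-1 library, which goes against what the label would place there. The labels do not give the deleted part of either gene, and whether the genotype label of the GFP library is right cannot be told from these levels. The intestinal sodium-proton exchanger gene nhx-2, whose promoter drives both arrays, was low by FPKM in all 4 libraries, at 0, 1.28 and 2.74 with HZL-1 and 1.69 with GFP. Its reads in the HZL-1 libraries were 177, 63 and 142, so the library listed at 0 FPKM held the most reads.

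The 3 HZL-1 libraries were unlike each other in how many of the 7832 genes they held. Replicates 1 to 3 listed 3474 (44.4%), 591 (7.55%) and 2869 (36.6%) of them at 0, against 245 (3.13%) in the GFP library. Of the 7832, 2780 (35.5%) were above 0 in all 3 HZL-1 libraries, 3170 (40.5%) in 2 and 1882 (24.0%) in only 1. Detection was therefore fullest in replicate 2 and in GFP. Gene reads, which the deposited files give for the HZL-1 libraries only, totalled 12923984, 17397251 and 11723516, and the coding genes described took 12.1%, 8.61% and 19% of them. How deeply the GFP library was sequenced is unknown. Among these genes the log2 levels of replicates 2 and 3 had a Pearson correlation of 0.60, replicates 1 and 2 one of 0.32, and replicates 1 and 3 one of 0.19, across genes that are not independent. With GFP the correlations were 0.40, 0.72 and 0.39, so replicate 2 was closer to GFP than to either of its replicates. An FPKM of 0 also occurred in 142 (3.68%) and 131 (3.17%) of the genes with over 100 reads in the deposited read table of replicates 1 and 3, so a value listed at 0 is not always an absence of reads.

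Most coding genes were at lower FPKM with HZL-1 than with GFP, and no gene passed the test in the higher direction. The median log2 difference of the 7832 genes was -1.24, beside -1.27 over all 9169 genes tested, and replicates 1 to 3 taken singly gave -1.31, -1.2 and -1.24. These like medians hide unlike libraries, since they include the genes listed at 0. Among genes above 0 in both the library and GFP (4272, 7144 and 4805), the median log2 ratio of FPKM was -0.45, -1.63 and -0.53. The shift among detected genes was thus largest in replicate 2. The middle range from the 25th to the 75th percentile ran from -1.94 to -0.46, with 1178 genes above 0 and 6654 below. By limma, 0 of the 7832 genes were higher and 2 lower at an adjusted p under 0.05, beside backgrounds of 0% higher and 2.16% lower over all genes tested. The lower count is set largely by the rule, which removes genes at 0 in all 3 HZL-1 libraries. Before it, 24 protein-coding genes were called lower, and 22 of them were at 0 in all 3. At an unadjusted p under 0.05 limma gave 1 higher and 425 lower of the 7832 genes, beside 1 higher and 859 lower of all 9169 tested. With 3 libraries against 1, an exact permutation test cannot reach a p of 0.05, its smallest being 0.5 when the 1-sided p is doubled. The limma test therefore rests on the spread of the HZL-1 groups being that of GFP as well. Of the 198 genes called lower over all categories, 158 stood at 0 in each of the 6 HZL-1 libraries, and 150 were annotated as non-coding RNA.

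The 2 genes called lower among the 7832 were nearly undetected with HZL-1 and low with GFP. The cuticle collagen gene col-166 (X:6279801-6281015) was listed at 0, 0.04 and 0 FPKM with HZL-1 and 5.45 with GFP, with 0, 11 and 0 reads in the HZL-1 libraries. Its log2 difference was -2.67 ± 0.41 (SE, limma adjusted p = 0.0329). For drd-10 (V:7007612-7008299) the values were 0, 0 and 0.45 FPKM with HZL-1 and 3.70 with GFP, and the difference was -2.05 ± 0.29 (SE, limma adjusted p = 0.0218). Both SEs rest largely on HZL-1 values at or near 0 FPKM, where the spread is small, and the single GFP library adds no estimate of spread. The aak(0) HZL-1 libraries held 0, 0.96 and 0.45 FPKM of col-166 and 0, 0 and 0.19 of drd-10. A larger difference at a higher level, that of gld-1 (-4.45 ± 2.48, SE), was not called. Both calls were lost in most alternative settings, for col-166 up to an adjusted p of 0.855 and for drd-10 up to 0.941.

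Because the test made no higher calls, genes were also counted by whether their 3 HZL-1 libraries all lay on 1 side of GFP. All 3 lay above GFP for 93 of the 7832 coding genes (1.19%), beside 1.17% of all genes tested, and all 3 lay below it for 4328 (55.3%), beside 55.6%. The shares among coding genes were near the background in both directions. Both counts depended on how libraries were scaled, since a median-of-ratios scaling gave 510 above and 2114 below, and quantile normalization gave 2006 above and 1805 below. That second count includes genes listed at 0, which quantile normalization sets to tied values above 0. Single libraries placed 1664 (21.2%), 860 (11%) and 1962 (25.1%) of the genes above GFP, so replicate 2 had the fewest, and without replicates 1, 2 or 3 the count above GFP was 544, 336 or 206. Of the 4328 genes below GFP, 2648 held a 0 in at least 1 HZL-1 library and 1680 were above 0 in all 3.

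**Figure D1:**
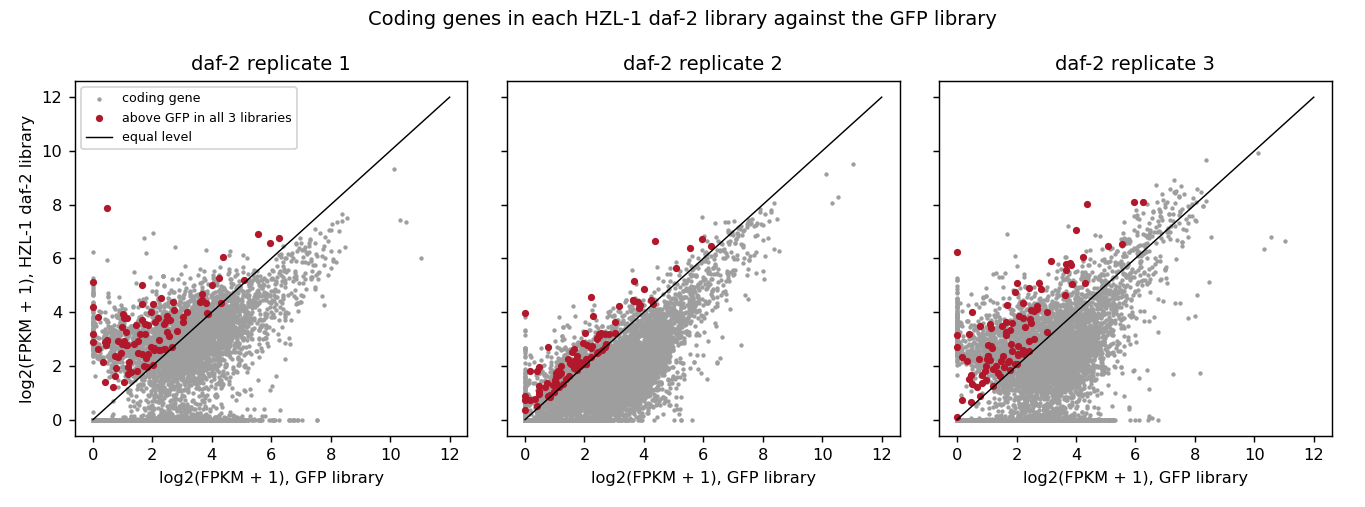
Coding genes in each HZL-1 daf-2 library (vertical axis) against the GFP library (horizontal axis), as log2(FPKM + 1), with 1 point per gene and the diagonal marking equal levels. Most points lie under the diagonal, the row at 0 is densest in replicates 1 and 3 with 3474 and 2869 genes, and replicate 2 follows GFP most closely with a Pearson correlation of 0.72.

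The differences were also summarised by GFP level, which is itself part of the difference, so that classes with higher GFP lean to negative values by construction. For 696 genes under 1 FPKM with GFP the median difference was 0.80, but these could enter only through an HZL-1 library and so had to be high there. From 1 to 3 FPKM with GFP the median was -0.39 (1156 genes), from 3 to 10 it was -1.49 (3631 genes), and from 10 to 30 it was -1.76 (1862 genes). The lowest median was in this last class, where the HZL-1 libraries all lay below GFP for 79.6% of genes. Above that the medians were nearer 0, at -1.37 for 380 genes from 30 to 100 FPKM and -0.92 for 107 genes at 100 FPKM or more. Of the 93 genes above GFP in all 3 libraries, 71 were under 5 FPKM with GFP and 62 had a median under 10 FPKM with HZL-1. Replicate 2 was the lowest of the 3 in 63 of them.

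Only 17 coding genes were both above GFP in all 3 libraries and at 10 FPKM or more in each, among 327 that met the level alone. Of these, 12 carry a gene symbol and 5 do not, and none passed limma's test. They are given as values of 4 libraries.

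The first group encodes parts of the translation machinery. The ribosomal protein gene rpl-25.1 (X:4715178-4715801) held 31.4, 28 and 132 FPKM with HZL-1 (mean 63.7 ± 58.9, SD, n = 3) and 15.1 with GFP. Its lowest HZL-1 library was 1.85 times GFP and its log2 difference 1.63 ± 1.02 (SE, limma adjusted p = 0.6). Replicate 3 stood well above the others, which were close to each other. The small ribosomal protein gene rpl-41.2 gave 107, 87.5 and 273 FPKM against 75.7, the lowest being 1.16 times GFP. The gene of a cytoplasmic poly(A)-binding protein, pab-2 (X:13522264-13527483), gave 35.5, 49.4 and 87 FPKM against 32.8, a log2 difference of 0.69. For both of these, replicate 3 was highest and the lowest library lay close to GFP. Since rpl-41.2 and rpl-25.1 have close paralogs, reads that match both copies could be split between them and their values are uncertain.

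Signalling genes formed a further group. The neuropeptide gene nlp-18 (II:11027962-11030404) held 20.7, 34.3 and 46.9 FPKM with HZL-1 (mean 34.0 ± 13.1, SD, n = 3) and 11.6 with GFP. Its log2 difference was 1.40 ± 1.40 (SE, limma adjusted p = 0.718), and the lowest library was 1.79 times GFP. The groundhog-like gene grd-3 (IV:3439655-3440453), of the hedgehog-related family of secreted nematode proteins, gave 15.2, 17.9 and 58.5 FPKM against 7.96, a difference of 1.55 ± 1.55 (SE, limma adjusted p = 0.718). The HZL-1 libraries from aak(0) animals did not all lie above GFP for either gene. They held 0, 5.49 and 9.96 FPKM for nlp-18 and 0, 8.64 and 8.54 for grd-3.

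Enzyme genes above GFP included oac-39 and nmad-1. The acyltransferase-like gene oac-39 (V:246618-251756) held 120, 83.8 and 91.7 FPKM with HZL-1 (mean 98.7 ± 19.3, SD, n = 3) and 46.2 with GFP. Its SD was the smallest relative to the mean among the 12 genes with a symbol, with the lowest library at 1.81 times GFP and a log2 difference of 1.06 ± 0.52 (SE, limma adjusted p = 0.547). For nmad-1 (III:5553489-5554934), named as a demethylase of N6-methyladenine in DNA, the values were 24.4, 20.3 and 54.6 FPKM against 11.8, and the difference was 1.28 ± 1.12 (SE, limma adjusted p = 0.691). The aak(0) HZL-1 libraries were also above GFP for both, at 103.9, 82.2 and 62.3 FPKM for oac-39 and 79.6, 13.5 and 19.2 for nmad-1. Both HZL-1 groups were set against the same GFP library here.

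The 2 muscle structural genes among the 12 stood only slightly above GFP, whereas most body wall muscle markers, given further on, did not. The myosin light chain gene mlc-2 (X:17455779-17456586) gave 14.6, 16.9 and 52.7 FPKM with HZL-1 and 13.4 with GFP. The troponin T gene tnt-3 (X:7937635-7945048) gave 19.2, 18.9 and 32.8 FPKM against 18.8, a log2 difference of 0.27 ± 0.60 (SE). In both, 2 of the 3 HZL-1 libraries lay close to GFP and replicate 3 alone was clearly higher. Of the other 3 genes with a symbol, brp-1 held 93.6, 105 and 275 FPKM against 60.8, droe-4 held 37.7, 20.8 and 64.7 against 17.9, and bcf-1 held 14.2, 18.1 and 31.9 against 13.8.

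The 5 genes without a symbol were named after their values were seen. C06G3.3 (IV:7036129-7036447) held 33.7, 14.5 and 74.3 FPKM with HZL-1, from 138, 75 and 356 reads, and was listed at 0 with GFP. It had the smallest adjusted p of any gene on the higher side (0.298, limma), with a log2 difference of 5.10 ± 1.34 (SE). Being at 0 with GFP, it entered only through the HZL-1 libraries and had to lie above GFP. The aak(0) HZL-1 libraries gave 0, 3.06 and 4.85 FPKM for it. F56H9.2 (V:12637663-12638237) held 65.5, 99.8 and 262 FPKM against 19.5 with GFP, so its lowest library was 3.36 times GFP, and its aak(0) HZL-1 libraries gave 116, 28.3 and 40.1. F38B7.2, Y48G8AL.13 and T07E3.4 had lower log2 differences, of 1.03, 0.87 and 0.79. Besides C06G3.3, the genes T19D7.7, ave-1 and B0462.5 were listed at 0 with GFP and above 0 in all 3 HZL-1 libraries, out of the 245 at 0 with GFP. They too entered only through HZL-1 libraries.

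**Figure D2:**
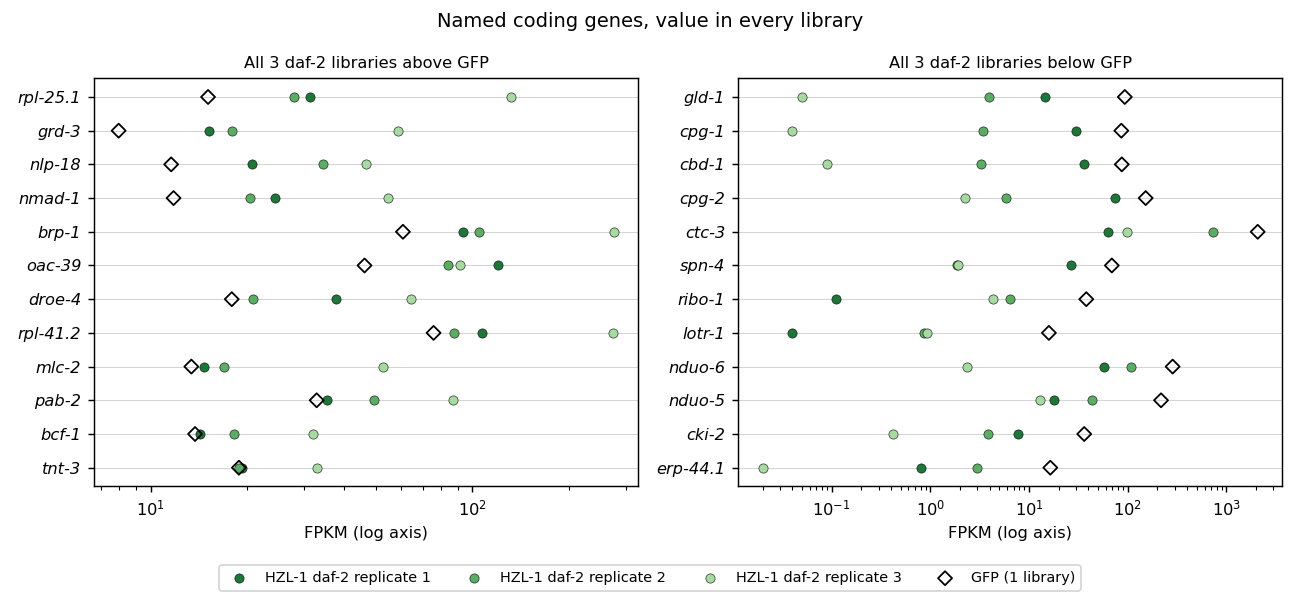
FPKM on a log axis of the 12 symbol-bearing genes whose 3 HZL-1 libraries lay above GFP (left) and of the 12 with the most negative differences (right), with filled circles for replicates 1 to 3 and an open diamond for the single GFP library. On the left replicate 3 is the highest point in most genes and tnt-3 touches GFP, whereas on the right the replicates of gld-1 run from 0.05 to 14.6 FPKM under a GFP value of 93.4.

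The genes farthest below GFP, among those detected in all 3 libraries and at 10 FPKM or more with GFP, were mainly of the germline and of the mitochondrial genome. The RNA-binding translational repressor gene gld-1, which acts in the germline, held 14.6, 3.92 and 0.05 FPKM with HZL-1 and 93.4 with GFP. Its log2 difference was -4.45 ± 2.48 (SE, limma adjusted p = 0.568), and its highest HZL-1 library was 6.39 times under GFP. The eggshell proteoglycan gene cpg-1 (III:4489359-4491392) gave 29.7, 3.38 and 0.04 FPKM against 86.2. The same order, replicate 1 highest and the others lower, held for the eggshell genes cbd-1 (35.8, 3.30 and 0.09 FPKM against 87.1) and cpg-2 (74.5, 5.82 and 2.25 against 152). It held broadly for spn-4, a maternal RNA-binding protein gene of the embryo, at 26.9, 1.87 and 1.91 FPKM against 69.0, and for the cyclin-dependent kinase inhibitor gene cki-2, at 7.75, 3.88 and 0.42 against 36.3. In the aak(0) HZL-1 libraries gld-1 stood at 0.66, 61.3 and 57.0 FPKM and cpg-2 at 8.96, 89.8 and 89.2, so aak(0) replicates 2 and 3 were nearer to GFP than any HZL-1 daf-2 library was, and aak(0) replicate 1 was far below it.

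Genes of the secretory pathway and germ granules were also among the 12 lowest. The oligosaccharyltransferase subunit gene ribo-1 (IV:6910683-6912865) held 0.11, 6.42 and 4.31 FPKM with HZL-1 and 38.1 with GFP. The endoplasmic reticulum protein gene erp-44.1 gave 0.80, 2.95 and 0.02 FPKM against 16.4. The LOTUS-domain gene lotr-1, which acts in germ granules, gave 0.04, 0.86 and 0.93 FPKM against 15.9, its highest library being 17.1 times under GFP. Unlike the eggshell genes, ribo-1, lotr-1 and erp-44.1 were not highest in replicate 1.

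All 12 mitochondrially encoded genes lay below GFP in all 3 HZL-1 libraries, and none passed limma's test. These genes encode subunits of the respiratory chain and ATP synthase. The cytochrome oxidase subunit gene ctc-3 held 63.8, 737 and 98.9 FPKM with HZL-1 and 2075 with GFP, a log2 difference of -3.62 ± 1.41 (SE, limma adjusted p = 0.521). Its sister gene ctc-1 gave 172, 267 and 80.7 FPKM against 1284. For ctb-1, which encodes cytochrome b, the values were 161, 308 and 111 FPKM against 1494, a difference of -3.07 ± 0.71 (SE, limma adjusted p = 0.194). The NADH dehydrogenase gene nduo-5 gave 18, 43.5 and 12.9 FPKM against 218. Replicate 2 was the highest of the HZL-1 daf-2 libraries in each of these genes and still below GFP. In each of them every aak(0) HZL-1 library was above all HZL-1 daf-2 libraries. The aak(0) values were 1139, 2550 and 2115 FPKM for ctc-3 and 170, 341 and 297 for nduo-5, on both sides of GFP. They were 693, 1098 and 1018 for ctc-1 and 948, 1399 and 1162 for ctb-1, below GFP. Summed over the 12 genes, FPKM was 721, 1813 and 434 with HZL-1 and 6356 with GFP, and the median difference was -3.07 beside -1.27 over all genes tested. With replicate 2 as the only HZL-1 daf-2 library, the list's median lay 0.58 below that of all genes, in place of 1.80.

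By their median over the 3 HZL-1 libraries, the 10 most abundant coding transcripts were 2 of elongation factors (eef-1A.1 and eef-2), 5 of ribosomal proteins (rps-8, rps-7, rpl-6, rla-0 and rps-0), vig-1, the histone gene his-66 and ctc-1. The place of his-66 is uncertain, since the deposited read table gave it 0 reads in each HZL-1 library, beside 201, 81.6 and 278 FPKM. The order differed by replicate, and in replicate 2 ctc-3 was above eef-1A.1. All 10 had a negative log2 difference from GFP, but 9 of them, all except ctc-1, turned positive under median-of-ratios scaling and 5 under quantile normalization. The elongation factor gene eef-1A.1 held 643, 569 and 966 FPKM (mean 726 ± 211, SD, n = 3) against 1121 with GFP. For rps-8 the values were 166, 263 and 808 FPKM against 330, and for rla-0 they were 121, 175 and 339 against 197. Replicate 3 was above GFP and replicates 1 and 2 below it for both of the last genes. The vig-1 gene, whose Drosophila homologue belongs to the RNA-induced silencing complex, gave 76.4, 221 and 247 FPKM against 311. Over 75 cytosolic ribosomal protein genes the summed FPKM was 2955, 7214 and 13343 with HZL-1 and 8452 with GFP, and 2, 20 and 59 of them lay above GFP in replicates 1 to 3. The list's median difference was -0.58, and 57 of 75 lay above the median of all genes tested. Under quantile normalization the list's median fell on the other side, 0.14 below that of all genes.

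**Figure D3:**
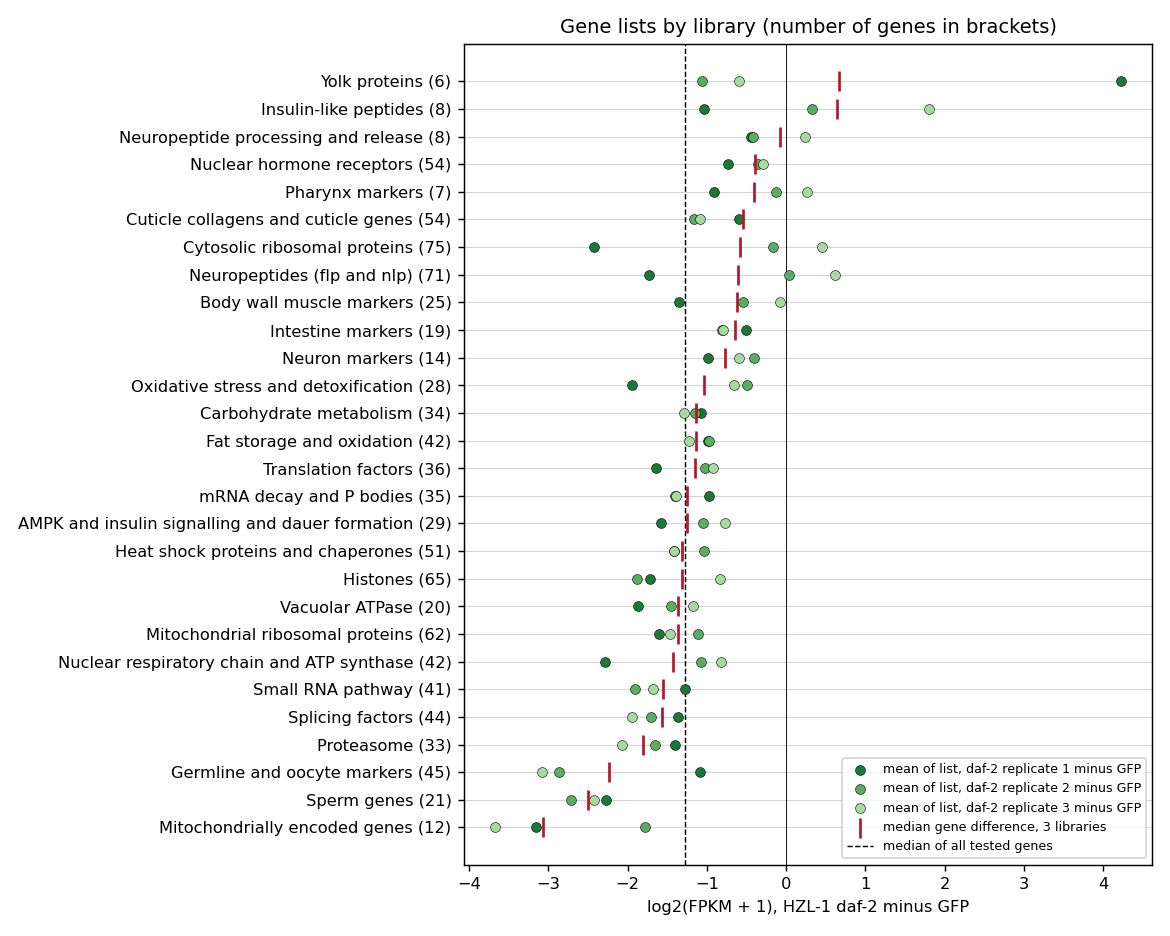
Log2 difference of HZL-1 in daf-2 minus GFP for 28 gene lists, with the number of genes in brackets. Each list has 1 point per HZL-1 library, the mean of its genes minus their mean with GFP. A mark shows the list's median gene difference, and a line the median of all 9169 genes tested (-1.27). Yolk and insulin-like genes have the highest medians, 0.67 and 0.64, the second set partly by 4 genes at 0 with GFP that entered only through HZL-1 libraries, and mitochondrially encoded genes the lowest, -3.07.

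Of the 28 lists, 17 had a median above that of all genes tested, and the secreted-peptide lists were among the highest. Genes low with GFP cannot fall far below 0 on this scale, so lists low with GFP lean upward by construction. No list was matched for GFP level. Mean log2(FPKM + 1) with GFP was 1.99 for nuclear hormone receptors and 2.38 for neuropeptides, against 4.03 for the proteasome. Cytosolic ribosomal proteins (6.5) lay above the all-gene median and mitochondrial ribosomal proteins (2.7) below it. Over 71 flp and nlp genes, which encode neuropeptides, the median was -0.61, with 52 above the all-gene median, 4 above GFP in all 3 libraries and 13 below. For this list and those that follow, the shares over all genes tested were 1.17% above and 55.6% below. The 4 were nlp-18 and 3 lower genes. For flp-22 the HZL-1 libraries held 18.9, 8.45 and 33.3 FPKM against 3.09 with GFP (log2 difference 2.19 ± 1.17, SE, limma adjusted p = 0.561). For flp-32 they held 15, 6.15 and 25.9 against 2.84, and for nlp-38 they held 12.2, 5.17 and 7.80 against 2.12. Detection of the list was uneven, since replicates 1 to 3 held 11, 68 and 55 of the 71 genes above 0 and GFP 64. Summed FPKM was 209, 445 and 1120 with HZL-1 and 450 with GFP, so only replicate 3 was clearly above GFP. An example is flp-1, at 0, 35.0 and 117 FPKM against 23.9.

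Genes that process or release neuropeptides stood near GFP. The 8 genes had a median difference of -0.08, with all 8 above the all-gene median. None was above GFP in all 3 libraries and 2 were below. The proprotein convertase gene egl-3 held 18.9, 44.9 and 82.2 FPKM against 36.3, and the carboxypeptidase gene egl-21 held 17, 23.3 and 59.1 against 18. In both the GFP level lay within the HZL-1 range.

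The 8 insulin-like peptide genes, several of which act on the DAF-2 receptor, had a median difference of 0.64, with none detected in replicate 1. They are 8 of 40 such genes in the table, and 4 of the 8 were listed at 0 with GFP, so these entered only through HZL-1 libraries and had to lie above GFP. For ins-29 the values were 0, 1.99 and 27.7 FPKM with HZL-1, and for ins-24 they were 0, 1.64 and 21.4, both listed at 0 with GFP. ins-30 gave 0, 2.61 and 12.7 FPKM against 3.9. The list's summed FPKM of 0, 14.9 and 87.1 with HZL-1 against 13.9 with GFP therefore rested on replicate 3.

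The 6 yolk protein genes, which adults express in the intestine, had a median difference of 0.67 that rested on replicate 1. Their summed FPKM was 392, 0.59 and 4.08 with HZL-1 and 9.20 with GFP. The vitellogenin gene vit-6 gave 123, 0.32 and 0 FPKM against 3.08, and vit-2 gave 73.3, 0.18 and 0.27 against 2.48. All 6 were above GFP in replicate 1 and none in replicate 2. Without replicate 1 the list's median lay 0.31 above that of all genes, and reads shared by the closely related vit-3, vit-4 and vit-5 make their separate values uncertain.

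Markers of the intestine, where the promoter is active, were not clearly apart from GFP. Of 19 genes, 14 lay above the all-gene median, none lay above GFP in all 3 libraries and 7 lay below, with a median difference of -0.65. The metallothionein gene mtl-1 held 0, 24.6 and 38.9 FPKM against 24.0, the intestinal filament gene ifb-2 0, 18.3 and 35.9 against 12.6, and the desaturase gene fat-6 29.5, 4.83 and 15.2 against 11.8. For each, GFP lay within the HZL-1 range. Summed over the 19 genes, FPKM was 151, 101 and 148 with HZL-1 and 169 with GFP.

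Markers of other tissues were recovered in all 4 libraries too. Summed FPKM of 14 neuron markers was 69.9, 69.8 and 68.9 with HZL-1 and 100 with GFP (median difference -0.77). None of them was above GFP in all 3 libraries and 9 were below. For 25 body wall muscle markers the sum was 239, 305 and 699 against 493 (median -0.62). Of these, cpn-3, mlc-2 and unc-60 were above GFP in all 3 libraries and 10 were below. The 7 pharynx markers summed to 26.2, 40.4 and 62.9 against 42.6 (median -0.41), and 1 of them, the troponin I gene tni-4, lay above GFP at 11.3, 5.80 and 13.6 FPKM against 3.28. Muscle and pharynx were thus highest in replicate 3, as were neuropeptides and ribosomal proteins. So were the 7832 coding genes as a whole, whose summed FPKM was 45516, 40987 and 65124 with HZL-1 and 96275 with GFP. Cuticle genes (54) summed to 219, 92.0 and 134 against 351, with a median of -0.54, none above GFP in all 3 libraries and 21 below.

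Germline and sperm genes lay lowest among the tissue lists. Of 45 germline and oocyte markers, 37 were below GFP in all 3 HZL-1 libraries and none above, with a median difference of -2.24 and summed FPKM of 613, 91.5 and 104.3 with HZL-1 and 1216 with GFP. Of 33 sperm genes tested 21 met the rule, with a median of -2.50, 14 below GFP and summed FPKM of 108, 14.4 and 43.4 against 213. Replicate 1 held the most of both, as it did of yolk genes. The genes gld-1, cpg-1, cbd-1 and cpg-2 described above are members of the germline list. The part of germline, sperm and yolk transcripts in the other results was not tested. Major sperm protein and histone genes exist in near-identical copies, so the values of single copies are uncertain.

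Lists of core cell functions lay at or below the median of all genes. The 33 proteasome genes had a median difference of -1.81 (28 below GFP), the 44 splicing factor genes -1.56 (29 below) and the 41 small RNA pathway genes -1.55 (33 below), with none above GFP in all 3 libraries. Examples are the 19S subunit gene rpn-2, at 16.7, 8.46 and 2.37 FPKM against 33, and the Piwi gene prg-1, at 5.49, 4.18 and 7.39 against 28.1. Nuclear respiratory chain and ATP synthase genes (42, median -1.43, 24 below), mitochondrial ribosomal proteins (62, -1.37, 29 below) and vacuolar ATPase genes (20, -1.36, 14 below) were nearer the all-gene median. So were histones (65, -1.32, 34 below) and heat shock proteins and chaperones (51, -1.31, 35 below). None of these 5 lists had a gene above GFP in all 3 libraries. Over all genes tested, 55.6% lay below GFP in all 3. Mitochondrial ribosomal proteins and histones were under that share and nuclear respiratory chain genes near it. Vacuolar ATPase genes and chaperones were over it.

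Metabolic and signalling lists were close to the all-gene median as well. Their counts below GFP stand beside 55.6% of all genes tested. Of 29 genes of AMPK and insulin signalling and dauer formation (median -1.25), 21 lay below GFP and 1 above, the SMAD gene daf-3 at 2.90, 3.11 and 6.07 FPKM against 2.54. The FOXO gene daf-16 gave 36.9, 62.2 and 126 FPKM against 141, all below GFP, and the nuclear receptor gene daf-12 gave 7.28, 29.0 and 54.8 against 47.4, which overlaps it. Fat storage and oxidation (42 genes, median -1.14, none above and 24 below) and carbohydrate metabolism (34, -1.14, 1 above and 25 below) were alike in this. For the fat list, the desaturase gene fat-1 held 22, 16.5 and 32.4 FPKM against 31. The carbohydrate gene above GFP was sucl-1, a succinyl-CoA ligase gene, at 8.01, 2.56 and 3.54 FPKM against 2.33.

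Among RNA-related lists, translation factors (36 genes) had a median of -1.15 and mRNA decay and P body genes (35) one of -1.25, with 1 gene of each above GFP, eif-3.H and pab-2. The P body helicase gene cgh-1 gave 25.5, 25.8 and 44.2 FPKM against 101, below GFP in all 3 libraries. Oxidative stress and detoxification genes (28) had a median of -1.03, 10 below GFP and none above. The 54 nuclear hormone receptor genes had a median of -0.39, with 39 above the all-gene median, 17 below GFP and 1 above it, nhr-21, at 5.83, 2.18 and 5.77 FPKM against 1.22. This list was low with GFP, which by itself favours a place above the all-gene median.

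Genes on the X chromosome stood higher relative to GFP than those on autosomes. The 820 X-linked coding genes had a median log2 difference of -0.54 and the 7000 autosomal ones -1.32, with autosome medians from -1.44 on chromosome I to -1.09 on V. All 3 HZL-1 libraries lay above GFP for 26 X-linked genes (3.17%) and for 0.957% of autosomal ones. In replicates 1 to 3 the X-linked medians were -1.01, -0.57 and -0.15 and the autosomal ones -1.34, -1.30 and -1.37. X-linked genes were also lower with GFP, at a median of 3.16 FPKM against 6.54. Within 10 to 30 FPKM with GFP the medians were -1.21 on X and -1.78 on autosomes, in replicates 2 and 3 -0.78 against -1.81 and -0.49 against -1.75, while in replicate 1 the order turned, with -1.45 on X and -1.27 on autosomes.

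**Figure D4:**
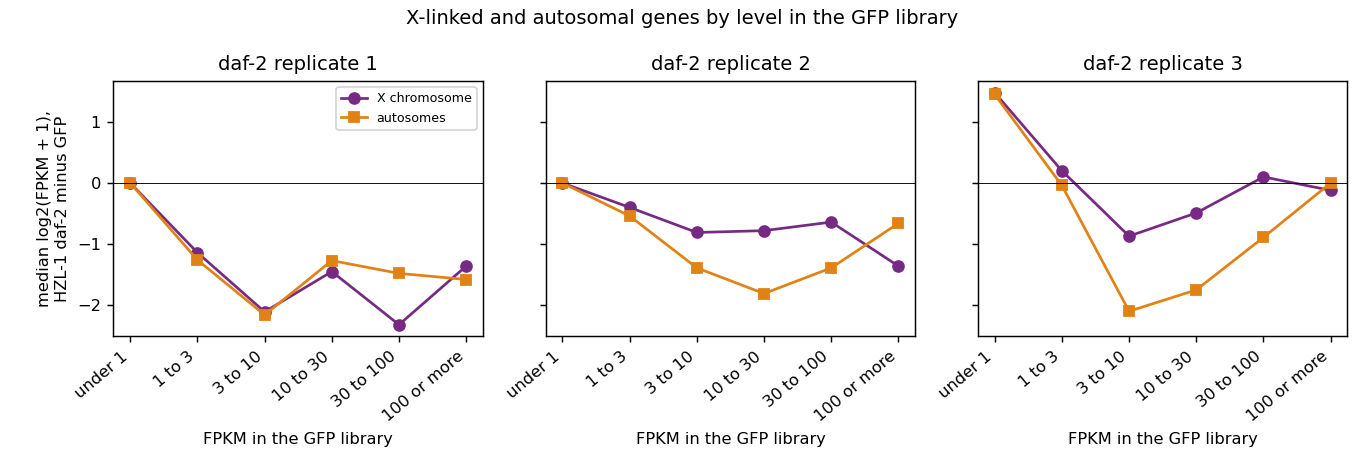
Median log2 difference of each HZL-1 daf-2 library minus GFP for X-linked and autosomal coding genes, within classes of GFP level in FPKM. From 1 to 100 FPKM with GFP, X-linked genes lie above autosomal ones in replicates 2 and 3, but at 100 FPKM or more the 3 X-linked genes lie below (-1.36 against -0.66 in replicate 2). Replicate 1 has X below autosomes from 10 to 30 FPKM (-1.45 against -1.27) and from 30 to 100 FPKM (-2.32 against -1.48).

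Families that share a name prefix and hold at least 10 of the coding genes spread widely. The highest medians were those of the chemoreceptor family str (0.63, 11 genes), the neuropeptide receptor family npr (0.31, 12 genes) and the ligand-gated channel family lgc (0.30, 10 genes). For genes low with GFP the mean level of 1 FPKM itself favours positive differences. The glucuronosyltransferase family ugt had a median of -0.01 over 22 genes, 3 of them above GFP in all 3 libraries. At the other end were the major sperm protein family msp (-2.98, 14 genes), the proteasome family rpn (-1.98), the Mediator family mdt (-1.89) and the nucleoporin family npp (-1.73, 20 of 23 below GFP).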

How the data were processed

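Levels were compared in 4 of the libraries, 3 of HZL-1 in daf-2 and 1 of GFP. The submitters' processing notes name RSEM, STAR 2.7.1a, DESeq2 1.30.1 and Trimmomatic 0.35, and the build WBcel235, without settings. FPKM values were deposited for 7 libraries. For the 6 HZL-1 libraries they also deposited a signal, gene reads divided by 1 factor per library, from which whole reads were recovered within a tolerance of 0.01. Log2 fold changes, p-values, mean signal and a test score in that deposited table concern another comparison and were not used. GFP has no reads there, so no count test was possible.

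From these, log2(FPKM + 1) of 7 libraries was modelled in limma 3.58.1 under R 4.3.3, with a trend of variance on mean level, 3 group means and 4 residual degrees of freedom. The single GFP library is assumed to vary like the HZL-1 groups. Genes averaging 1 FPKM or more across the 4 libraries entered, and Benjamini-Hochberg adjusted p under 0.05 was called over 9169 genes. The fold changes understate low genes. The fit was tested on simulated data.

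The genes and the 28 lists were chosen with earlier results of these data known. Named were the genes of the genotype and promoter, those called, up to 15 above GFP with at least 10 FPKM in each HZL-1 library, up to 12 lowest with at least 10 FPKM with GFP, the 10 most abundant, and in each list the leading members and any above GFP. No gene at 50 FPKM or more with GFP was at 0 in all but 1 HZL-1 library. Of 46904 gene names, 1117 sequence names and 11 dates were replaced through RefSeq.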

Additional observations from a re-analysis of the deposited data

How the results depend on the processing

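The test rests on 1 GFP library of unknown depth and on replicates that differ in detection, so single calls are weak. The run without the 3 sparse libraries, defined in the next sentence, sets daf-2 replicate 2 alone against the 1 GFP library. Neither compared group keeps a replicate there, and the spread comes only from aak(0) replicates 2 and 3. The calls of that run, higher or lower, therefore cannot be weighed against those of the other runs. Higher calls among the coding genes (0) became 1 without HZL-1 daf-2 replicate 1 and 10 without 3 sparse libraries (those listing the fewest genes above 0, daf-2 replicates 1 and 3 and aak(0) replicate 1), an alternative chosen after seeing the data. Over all genes tested they became 42 there, and ranged from 0 to 1 when single libraries were left out. Lower calls among the coding genes (2) were 0 with a pseudocount of 0.1, a filter over 7 libraries, a minimum of 5 FPKM, quantile normalization, median-of-ratios scaling, no trend or genes above 0 in all 4 libraries. They were 14 with a pseudocount of 10, 25 with no filter, 154 from the 4 libraries alone, 81 without the 3 sparse libraries and 1 to 99 leaving out single libraries. Over all genes, lower calls (198) were 103 with the 7-library filter, 2348 with no filter, 653 from the 4 libraries alone, 0 with the minimum of 5 FPKM, quantile normalization, no trend or genes above 0 in all 4, and 190 to 474 leaving out single libraries. The median of the coding genes (-1.24) was -2.05 and -0.38 with pseudocounts of 0.1 and 10, 0.11 and -0.43 under quantile and median-of-ratios scaling, -1.50 rescaled to TPM and -1.01 for genes above 0 in all 4 libraries. Genes above GFP (93) numbered 46 at 5 FPKM, 2006 and 510 under these scalings, 860 without the 3 sparse libraries and 206 to 544 leaving out single daf-2 libraries. Genes below GFP (4328) numbered 1594, 1805, 2114, 6817 and 4526 to 5484 in the same order, and 1680 among genes above 0 in all 4. Lists above the all-gene median (17) were 9 with no filter. Direction turned for nhx-2 (0.82 by quantile, 0.18 by median-of-ratios scaling, and -0.83 to 0.12 leaving out single libraries), aak-1 (0.99 with quantile normalization) and aak-2 (0.94 and 0.58 with the same scalings). Of the 10 most abundant genes, 9 turned with median-of-ratios scaling, 5 with quantile normalization, 5 without daf-2 replicate 1 and 2 without daf-2 replicate 2. The cause was not tested. Replicate numbers were not taken to pair the samples in the main fit. Same-numbered daf-2 and aak(0) libraries had correlations of deviations of -0.12, -0.0376 and -0.126. Differently numbered ones ran from -0.124 to 0.142, so these values cannot decide whether the numbers mark pairs. The daf-2 and GFP libraries share only number 1. With the replicate block, 2 coding genes and 164 of all genes were lower, but the 2 were rpl-36.A and rpl-37.1 (named after their values were seen), and col-166 (adjusted p = 0.162, limma) and drd-10 (0.0851) were lost, the median was -1.64, hzl-1 turned to -0.23, rpl-41.2 turned from 0.84 to -1.67, and nlp-18 and grd-3 came to 0.07 and 0.12. The lists of yolk, insulin-like, neuropeptide, neuropeptide processing, nuclear receptor, pharynx and muscle genes stayed above the all-gene median, and those of germline, sperm, small RNA, splicing and mitochondrially encoded genes below it, in each alternative run, except that the insulin-like list has no gene above 0 in all 4 libraries and so no value there. These runs reuse the same genes and do not match the lists for GFP level.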
